A study of Mus musculus with 13 samples.

Results

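The spindle checkpoint and chromosomal passenger genes described here are 10 genes of mouse chromosome segregation. The checkpoint genes are Bub1, Bub1b, Bub3, Mad2l1 and Ttk, the Aurora kinase genes are Aurka, Aurkb and Aurkc, and Birc5 and Incenp encode the passenger subunits survivin and the inner centromere protein. They were chosen by name, and all 10 were found by symbol among the 54232 genes of the count table. All 10 were also among the 20143 genes that passed the filter on low counts.

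The spindle assembly checkpoint holds a dividing cell in metaphase until every kinetochore is attached to the spindle. TTK starts its signal at unattached kinetochores, BUB1 and BUB3 assemble there, and MAD2 (the product of Mad2l1) and BUBR1 (the product of Bub1b) bind CDC20 and so restrain the anaphase-promoting complex. The chromosomal passenger complex joins INCENP, survivin and borealin to Aurora B, or in germ cells to Aurora C, and corrects faulty attachments, whereas Aurora A acts at the spindle poles. Fully grown mouse oocytes are largely silent in transcription, and maturation proceeds on stored mRNA that is translated, stored or degraded.

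The series holds RNA sequencing of 13 pools, each of 25 oocytes or eggs, in 4 groups. MII Null (n = 4) and MII WT (n = 3) were eggs arrested in metaphase of the second meiosis, collected 12 to 14 h after human chorionic gonadotropin. GV Null (n = 3) and GV WT (n = 3) were fully grown oocytes with an intact germinal vesicle, the nucleus before meiosis resumes, collected in medium with 0.2 mM IBMX, which keeps them from maturing. Null females were homozygous for a Cas9-made deletion of the promoter of the long noncoding RNA gene Sirena1, in a line bred with C57BL/6NCrl mice, and WT females carried no deletion according to the labels. All pools carry the strain label C57BL6/J, the collection protocol names C57Bl6/J or C57BL/6NCrl, the females were superovulated, and the animals' age is not stated. The labels do not say whether pools of a group came from separate females, so the p-values measure the spread between these pools, which may be technical.

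Total counts ran from 30867614 to 41285507 per library. Sirena1, listed under the symbol C86187, was at 35.9 to 45.0 CPM (counts scaled to library size) in MII Null eggs, against 4271 to 4693 CPM in MII WT eggs, and at 23.3 to 26.4 CPM in GV Null oocytes, against 2912 to 3092 CPM in GV WT oocytes. The labels of genotype and the level of the targeted gene matched in all 13 libraries. The first principal component (73.1% of the variance) separated the stages, with MII Null replicate 4 at 27.8 and the other MII libraries at 44.7 to 58.6, and with GV Null replicates 2 and 3 at -73.9 and -64.1 and the other GV libraries between -53.2 and -49.4. The summed level of 12 oocyte markers was 10028.5 to 11568 CPM in the MII libraries, against 12979 to 14563 CPM in the GV libraries. The summed level of 21 cumulus and granulosa cell markers was 358 to 372 CPM in MII Null, 340 to 352 CPM in MII WT, 286, 786 and 421 CPM in GV Null and 268 to 292 CPM in GV WT. GV Null replicates 2 and 3 were thus above the other GV libraries. In eggs these sums were mostly Serpine2 (251 ± 13.9 CPM in MII Null and 241 ± 7.51 CPM in MII WT), Nr5a2 (72.5 ± 11.2 and 60.5 ± 1.48 CPM) and Cyp19a1 (30.8 ± 2.46 and 36.5 ± 2.63 CPM). The same genes made up most of the sums in GV WT oocytes (169 ± 5.90, 54.8 ± 0.646 and 27.7 ± 2.85 CPM). In GV Null they were at 191 ± 7.68, 65.0 ± 13.5 and 26.2 ± 2.07 CPM. The median log2 fold change of the 17 tested markers in MII over GV was -3.62 in Null and -2.37 in WT. Of the 21 markers, Amh, Amhr2, Foxl2, Fst, Inha and Inhbb had no count in any MII WT library, and Tnfaip6 and Areg had none in GV WT, MII Null or MII WT. In MII Null those absent from MII WT reached, in the same order, 8, 13, 16, 8, 44 and 9 counts in a library. MII Null replicate 4 had 4 of the 21 markers at 0 counts, against 9 to 11 in each other egg library.

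CPM here were scaled with the trimmed mean of M-values (TMM), so a level is relative to the other mRNAs of the library. Although each pool held 25 cells, a level does not give the amount of an mRNA per cell. The counts are not divided by transcript length, so no order of levels between genes is given. The lowest member count in any library was 752, for Aurkb, and the highest was 62174, for Bub1b. Counting alone gives a coefficient of variation of 3.65% at the lowest and 0.401% at the highest of these counts, and the coefficient of variation between pools, per gene and group, was 0.83% to 18.2%. Without molecular identifiers, the values for counting cover counting error only.

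Promoter windows of 3 members are shown because these genes differed in what their mRNA did during maturation: Birc5 was far lower in eggs, Ttk was higher, and Aurka did not pass the test. Each window covers 250 bases before the annotated start and 50 bases after it, in the direction of transcription, from RefSeq (GRCm38.p6). The start is the one the RefSeq promoter table uses, which for Birc5 is the first base of the gene span given later and for Ttk and Aurka lies inside that span. They lie at chr11:117848987-117849286 (plus strand, Birc5), chr9:83834439-83834738 (plus strand, Ttk) and chr2:172370521-172370820 (minus strand, Aurka). Capitals mark matches to the cell cycle homology region as TTTGAA or TTCGAA and to the CCAAT box, on either strand (TTCAAA and ATTGG are the reverse forms).
Birc5: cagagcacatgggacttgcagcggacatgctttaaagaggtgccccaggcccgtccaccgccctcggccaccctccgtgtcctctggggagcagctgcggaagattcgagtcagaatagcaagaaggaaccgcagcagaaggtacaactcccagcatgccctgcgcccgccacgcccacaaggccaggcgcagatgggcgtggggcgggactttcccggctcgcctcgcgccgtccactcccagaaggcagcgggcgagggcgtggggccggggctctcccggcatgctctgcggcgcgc
Ttk: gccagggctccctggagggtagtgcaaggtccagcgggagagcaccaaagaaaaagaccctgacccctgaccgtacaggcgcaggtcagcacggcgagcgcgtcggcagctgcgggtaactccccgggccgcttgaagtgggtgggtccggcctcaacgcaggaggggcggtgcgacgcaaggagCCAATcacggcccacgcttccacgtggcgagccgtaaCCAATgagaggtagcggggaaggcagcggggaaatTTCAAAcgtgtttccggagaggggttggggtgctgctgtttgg
Aurka: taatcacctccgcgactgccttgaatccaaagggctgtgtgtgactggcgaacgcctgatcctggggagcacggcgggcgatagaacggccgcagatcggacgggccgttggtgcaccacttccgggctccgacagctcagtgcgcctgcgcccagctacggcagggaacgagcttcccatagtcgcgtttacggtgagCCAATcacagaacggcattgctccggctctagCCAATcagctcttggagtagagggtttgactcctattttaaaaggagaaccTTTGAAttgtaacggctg
The Birc5 window held none of these motifs, while those of Ttk and Aurka each held 2 CCAAT boxes upstream of the start and 1 TTTGAA match just after it. Of the 8 members in the RefSeq promoter table, 6 held CCAAT and 5 held TTTGAA or TTCGAA, against 37.4% and 19.2% of all 32851 windows. Members were counted by gene, if any window of the gene matched, and the background by single window. Whether the shares differ was not tested. Bub1b, the gene of the checkpoint pseudokinase BUBR1, held all 3 motifs, and Bub1 held CCAAT and TTCGAA. The window of Mad2l1, like that of Birc5, held none. Aurkb and Incenp had no entry in the promoter table, so no window of theirs was searched. No match overlapped another. A match describes these letters and is neither a site nor a cause.

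The comparison of eggs with oocytes asks how the stored mRNA of these genes differed after maturation. In both genotypes Birc5 was more than 4-fold lower in MII eggs than in GV oocytes, and Aurkb, Ttk, Mad2l1 and Aurkc were higher by smaller factors (gene spans are those of RefSeq on GRCm38.p6). Bub1, Bub1b, Bub3, Aurka and Incenp did not pass the test. Thus 4 members rose and 1 fell in Null, and the same numbers rose and fell in WT. The libraries were made from polyA RNA, so rose and fell here refer to the relative level of polyA mRNA. Amount of mRNA and length of the poly(A) tail cannot be told apart in these counts, and the part of either was not tested. Of all tested genes, 49.0% passed in Null and 42.7% passed in WT (edgeR quasi-likelihood test, Benjamini-Hochberg adjusted p under 0.05), so a share of 5 in 10 members was near the background. By direction, 22.1% of all genes were higher and 26.9% lower in Null, and 19.9% were higher and 22.8% lower in WT. The median log2 fold change of the members was 0.02 in Null and -0.02 in WT, beside -0.05 and 0.01 over all tested genes.

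**Figure D1:**
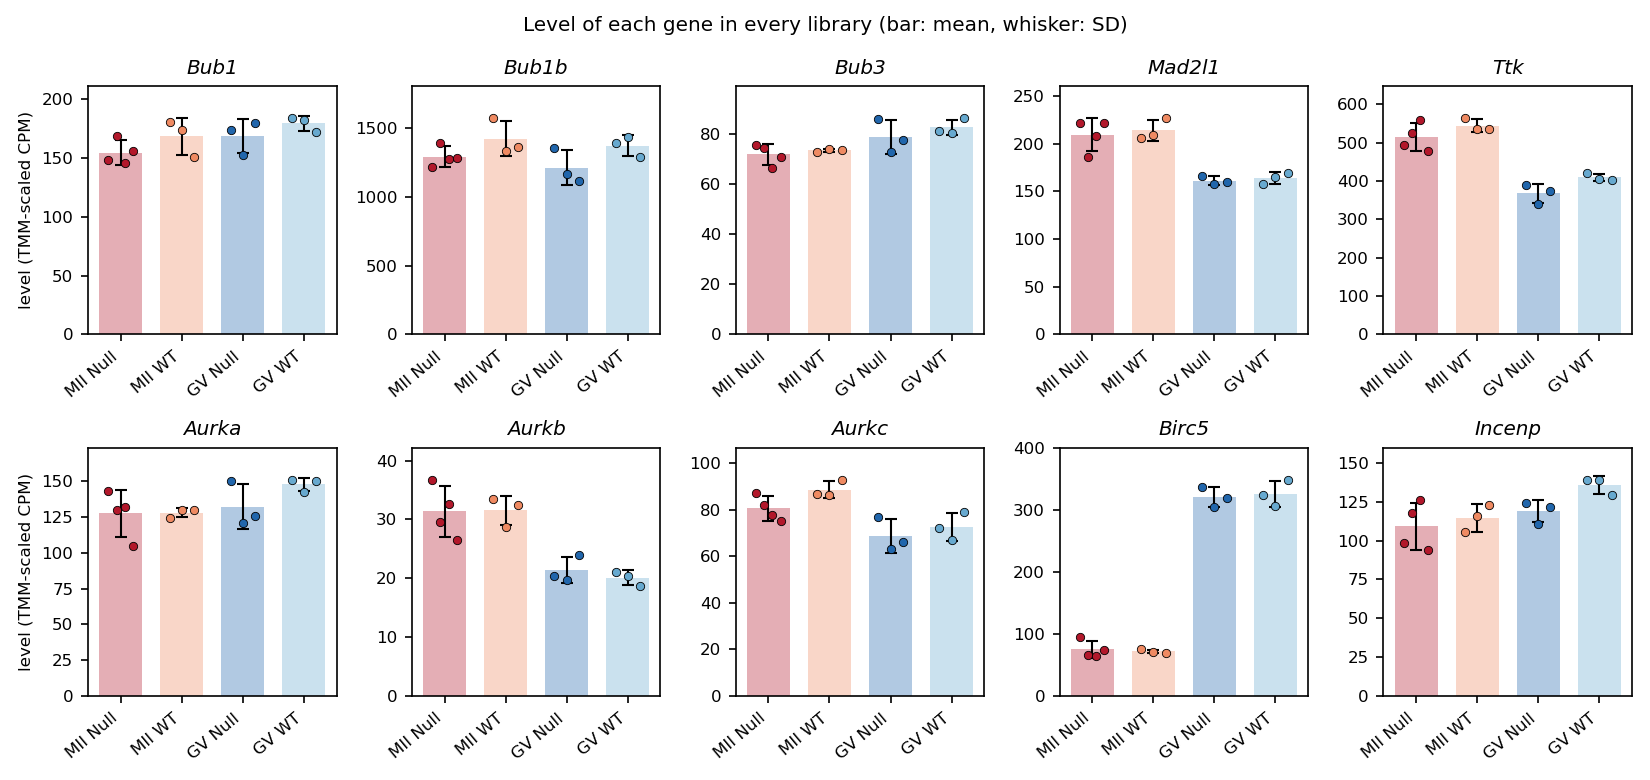
TMM-scaled CPM of each gene in every library of MII Null, MII WT, GV Null and GV WT pools, with the group mean and SD as a bar and whisker, on axes that start at 0. Birc5 is at 64.8 to 94.5 CPM in eggs and at 305 to 348 CPM in oocytes, whereas the other 9 genes differ by at most 1.57-fold between stages in the fit.

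Birc5 (ENSMUSG00000017716, chr11:117849237-117855743), which encodes survivin, the subunit that docks the passenger complex on centromeric chromatin, was at 94.5, 66.2, 64.8 and 74.7 CPM in MII Null eggs, against 337, 305 and 320 CPM in GV Null oocytes. In WT it was at 75.0, 71.2 and 69.1 CPM in MII eggs, against 323, 305 and 348 CPM in GV oocytes. Every egg library was below every oocyte library, and MII Null replicate 1 was the highest of the eggs. The log2 fold change was -2.09 ± 0.10 in Null (SE, adjusted p = 4.33e-11), a 4.27-fold lower level, and -2.18 ± 0.11 in WT (adjusted p = 1.19e-10), a 4.54-fold lower level. Among all tested genes these changes stood at percentiles 8.18 (Null) and 7.11 (WT).

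Incenp (ENSMUSG00000024660, chr19:9872295-9899489), the scaffold of the complex, was at 98.6, 118, 126 and 93.7 CPM in MII Null eggs, against 124, 111 and 122 CPM in GV Null oocytes. The WT values were 105, 115 and 123 CPM in MII eggs, against 139, 139 and 129 CPM in GV oocytes. The Null groups overlapped, while all 3 WT egg libraries were below the 3 WT oocyte libraries. Incenp had a log2 fold change of -0.12 ± 0.09 in Null (SE, adjusted p = 0.292) and -0.24 ± 0.10 in WT (adjusted p = 0.0587). In WT it passed the threshold when only the WT groups were fitted (-0.29, adjusted p = 0.00116), with DESeq2 (adjusted p = 0.0399) and under some other settings given at the end. Its span overlaps the annotated pseudogene Gm19054, not analysed here.

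Aurkb (ENSMUSG00000020897, chr11:69045624-69051664), the catalytic subunit of the somatic passenger complex, was at 36.7, 29.6, 32.7 and 26.4 CPM in MII Null eggs, against 20.4, 19.8 and 23.9 CPM in GV Null oocytes. In WT it was at 33.4, 28.8 and 32.5 CPM in MII eggs, against 21.1, 20.4 and 18.8 CPM in GV oocytes. The stages did not overlap in either genotype, and MII Null replicate 4 was the egg library nearest to the oocytes. Aurkb rose 1.47-fold in Null (log2 0.55 ± 0.11, SE, adjusted p = 0.000502) and 1.57-fold in WT (log2 0.65 ± 0.12, adjusted p = 0.00024).

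Aurkc (ENSMUSG00000070837, chr7:6995347-7003091), the germ-cell paralog of Aurkb, was at 87.3, 81.9, 77.8 and 75.0 CPM in MII Null eggs, against 77.0, 63.2 and 66.2 CPM in GV Null oocytes. MII WT eggs had 86.7, 86.2 and 92.7 CPM of Aurkc, against 71.9, 67.1 and 79.1 CPM in GV WT oocytes. The Null groups overlapped, since MII Null replicate 4 was below GV Null replicate 1, and the WT groups did not. The log2 fold change was 0.23 ± 0.08 in Null (SE, adjusted p = 0.0337) and 0.28 ± 0.09 in WT (adjusted p = 0.0164). The call in Null was lost without any one of GV Null replicates 2 and 3 and MII Null replicates 1, 2 and 3 (log2 0.15 to 0.22) and when only the Null groups were fitted (adjusted p = 0.0842). Leaving out both GV Null replicates 2 and 3 leaves 1 GV Null library, assumed to vary like the pools of the other groups, and Aurkc was then at 0.07 ± 0.11 (SE, adjusted p = 0.722). The call in WT was lost without GV WT replicate 1 or 2 or MII WT replicate 3 (log2 0.23 to 0.28). How reads shared by the Aurora paralogs were counted is not given in the sources used here, so the split between Aurkb, Aurkc and Aurka is uncertain to that extent.

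Aurka (ENSMUSG00000027496, chr2:172356190-172370886), the spindle-pole kinase, was at 144, 130, 132 and 105 CPM in MII Null eggs, against 150, 121 and 126 CPM in GV Null oocytes. Its WT levels were 124, 130 and 130 CPM in MII eggs, against 151, 143 and 150 CPM in GV oocytes. The Null groups overlapped, and the WT egg libraries were all below the WT oocyte libraries. The log2 fold change was -0.05 ± 0.09 in Null (SE, adjusted p = 0.680) and -0.21 ± 0.10 in WT (adjusted p = 0.108), the second reaching adjusted p = 0.000761 when only the WT groups were fitted. The annotated span of Aurka overlaps that of Cstf1, a gene of mRNA 3′ end cleavage, and strand handling is not given. Cstf1 rose by log2 0.40 in Null (adjusted p = 0.000893) and 0.42 in WT (adjusted p = 0.00117), and its part in the Aurka counts was not tested.

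Ttk (ENSMUSG00000038379, chr9:83834651-83872390), the kinase that starts checkpoint signalling (also called MPS1), was at 493, 524, 560 and 478 CPM in MII Null eggs, against 389, 339 and 375 CPM in GV Null oocytes. In WT it was at 563, 535 and 534 CPM in MII eggs, against 420, 406 and 402 CPM in GV oocytes. The lowest egg library was above the highest oocyte library in both genotypes. Ttk rose 1.40-fold in Null (log2 0.48 ± 0.07, SE, adjusted p = 1.73e-05) and 1.33-fold in WT (log2 0.41 ± 0.07, adjusted p = 0.000205).

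Mad2l1 (ENSMUSG00000029910, chr6:66535221-66541107), whose product MAD2 is the checkpoint's effector, was at 222, 186, 208 and 222 CPM in MII Null eggs, against 166, 158 and 160 CPM in GV Null oocytes. Its WT levels were 206, 209 and 226 CPM in MII eggs, against 157, 165 and 169 CPM in GV oocytes. No oocyte library reached the lowest egg library. Mad2l1 rose 1.30-fold in both genotypes, by log2 0.38 ± 0.07 in Null (SE, adjusted p = 0.000273) and 0.38 ± 0.08 in WT (adjusted p = 0.000487).

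Bub1 (ENSMUSG00000027379, chr2:127800197-127831859), the kinase that recruits other checkpoint proteins and shugoshin, was at 148, 169, 145 and 156 CPM in MII Null eggs, against 174, 152 and 179 CPM in GV Null oocytes. In WT it was at 181, 173 and 150 CPM in MII eggs, against 183, 182 and 172 CPM in GV oocytes. Both pairs of groups overlapped, and the log2 fold changes of -0.13 ± 0.08 in Null (SE, adjusted p = 0.205) and -0.09 ± 0.09 in WT (adjusted p = 0.413) did not pass.

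Bub1b (ENSMUSG00000040084, chr2:118598202-118641592) was at 1211, 1392, 1272 and 1277 CPM in MII Null eggs, against 1354, 1164 and 1114 CPM in GV Null oocytes. The WT values were 1567, 1329 and 1363 CPM in MII eggs, against 1392, 1429.9 and 1287 CPM in GV oocytes. The stages overlapped in both genotypes. The log2 fold change was 0.09 ± 0.08 in Null (SE, adjusted p = 0.388), with a 95% interval that ran between 94.5% and 119.7% of the oocyte level, and 0.05 ± 0.09 in WT (adjusted p = 0.664).

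Bub3 (ENSMUSG00000066979, chr7:131560367-131571895), which carries BUB1 and BUBR1 to kinetochores, was at 75.8, 74.5, 66.7 and 71.0 CPM in MII Null eggs, against 86.1, 72.9 and 77.9 CPM in GV Null oocytes. Among WT pools, Bub3 was at 73.1, 74.3 and 73.8 CPM in MII eggs, against 81.4, 80.6 and 86.4 CPM in GV oocytes. The Null groups overlapped and the WT egg libraries were all lower than the WT oocyte libraries. The log2 fold change was -0.13 ± 0.07 in Null (SE, adjusted p = 0.146) and -0.17 ± 0.08 in WT (adjusted p = 0.0992), with adjusted p = 0.00761 in WT when only the WT groups were fitted. In Null it passed without MII Null replicate 1 (-0.19, adjusted p = 0.0405).

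The libraries of eggs and oocytes did not overlap for 4 members in Null (3 higher and 1 lower) and for 8 in WT (4 higher and 4 lower), beside 46.4% and 58.3% of all tested genes. Of all genes, 21.2% were higher and 25.2% lower without overlap in Null, and 28.2% were higher and 30.1% lower in WT. The scale matters for the smaller changes. With library totals alone in place of TMM factors, the median log2 fold change of all genes moved to -0.28 in Null and -0.20 in WT, and the members split into 2 higher and 5 lower in each genotype. Over all genes the split into higher and lower was then 1985 and 7306 in Null, against 4456 and 5411 with TMM, and 1831 and 5898 in WT, against 4014 and 4595 with TMM. Birc5 (lower), Aurkb and Ttk (higher) kept their calls on that scale. Mad2l1 lost its call (log2 0.15, adjusted p = 0.0829 in Null, and 0.18, adjusted p = 0.0612 in WT), as did Aurkc (0.0033, adjusted p = 0.977 in Null, and 0.08, adjusted p = 0.447 in WT). Bub1, Bub3, Aurka and Incenp then passed as lower in both genotypes.

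Ratios of counts between members of 1 library do not depend on that scale, and they are given without a test. For each Incenp count there were 0.708 ± 0.208 Birc5 counts in MII Null and 0.630 ± 0.0769 in MII WT eggs, against 2.70 ± 0.0699 in GV Null and 2.41 ± 0.255 in GV WT oocytes (SD). Ttk stood at 3.34 ± 0.362 counts per Bub1 count in MII Null and 3.25 ± 0.264 in MII WT, against 2.18 ± 0.0811 in GV Null and 2.28 ± 0.0538 in GV WT. The stages did not overlap in either ratio. Mad2l1 per Bub3 was 2.92 ± 0.293 in MII Null and 2.90 ± 0.145 in MII WT, against 2.05 ± 0.119 in GV Null and 1.98 ± 0.0613 in GV WT. Aurkb per Aurka was 0.246 ± 0.0129 in MII Null and 0.247 ± 0.0242 in MII WT, against 0.163 ± 0.0271 in GV Null and 0.136 ± 0.0098 in GV WT. Aurkc per Aurkb was 2.59 ± 0.247 in MII Null and 2.81 ± 0.205 in MII WT, against 3.24 ± 0.504 in GV Null and 3.63 ± 0.507 in GV WT, and here the Null groups overlapped. Since transcript lengths differ, such a ratio is not a ratio of molecules, and only its difference between groups can be read.

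**Figure D2:**
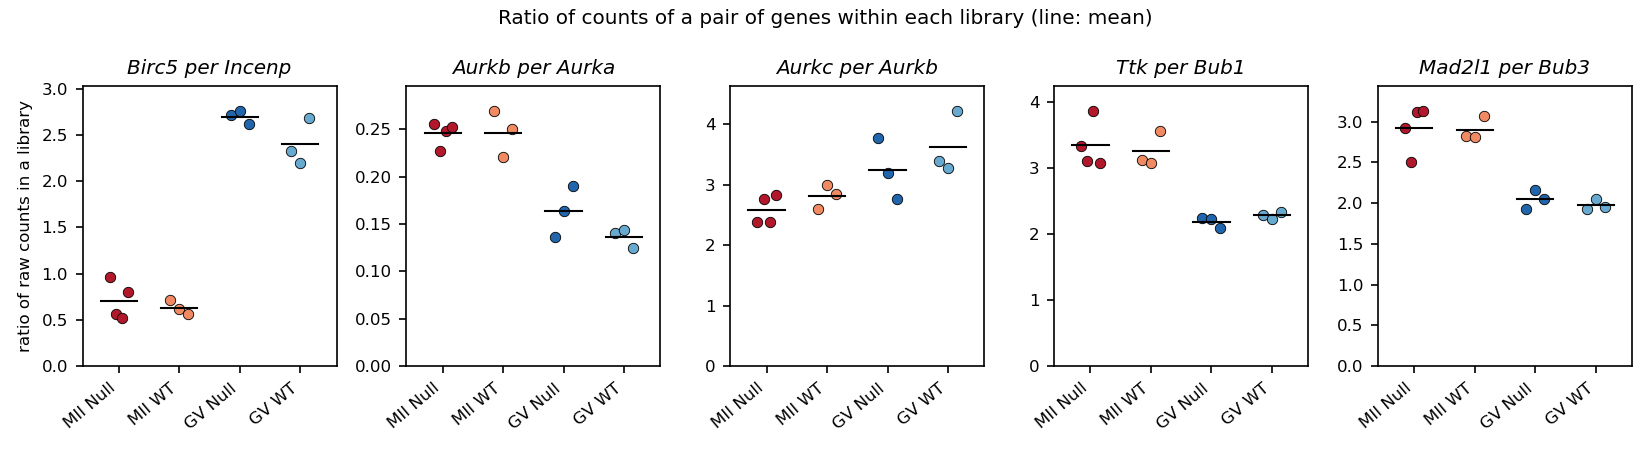
Ratio of raw counts of 2 members within each library, for MII Null, MII WT, GV Null and GV WT, on axes that start at 0, with each point a library. Birc5 per Incenp is 0.515 to 0.958 in eggs and 2.20 to 2.76 in oocytes, and Aurkc per Aurkb overlaps between stages in Null.

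Other genes of the same machinery also moved in both directions during maturation. Of 18 checkpoint and kinetochore partners, 7 rose and 5 fell in Null, and 6 rose and 3 fell in WT, with median log2 fold changes of 0.03 and 0.02, where 49.0% of all tested genes passed in Null and 42.7% in WT. With library totals alone, when 1985 of all genes were higher and 7306 lower in Null and 1831 higher and 5898 lower in WT, these counts were 3 higher and 9 lower in Null, and 1 higher and 7 lower in WT. With GV Null replicate 1 as the single GV Null library, its spread taken from the other groups, fewer of these partners were called in Null. Fewer of all tested genes were called there as well. Spc24, a subunit of the NDC80 complex that binds microtubules at kinetochores, averaged 2.52 ± 1.45 CPM in MII Null and 2.24 ± 0.642 CPM in MII WT, against 16.1 ± 0.144 CPM in GV Null and 15.2 ± 1.88 CPM in GV WT (SD). Spc24 fell by 2.67 on the log2 scale in Null (adjusted p = 5.3e-06) and by 2.76 in WT (adjusted p = 1.45e-05). Its partner in the complex, Spc25, fell by 1.01 in Null (adjusted p = 3.42e-07) and by 1.06 in WT (adjusted p = 5.8e-07). Zw10, of the complex that brings dynein and MAD1 to kinetochores, fell by 0.65 in Null (adjusted p = 7.16e-06) and by 0.61 in WT (adjusted p = 3.72e-05). Nuf2, another NDC80 subunit, did not move with Spc24 and Spc25 and rose by log2 0.38 in Null (adjusted p = 0.00183) and 0.33 in WT (adjusted p = 0.00868).

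Among the checkpoint partners that rose, Mad2l1bp, whose product p31comet takes MAD2 out of checkpoint complexes, averaged 7.90 ± 1.12 CPM in MII Null and 10.1 ± 1.23 CPM in MII WT, against 4.999 ± 0.419 CPM in GV Null and 5.47 ± 0.242 CPM in GV WT (SD). It rose by log2 0.66 in Null (adjusted p = 0.000972) and 0.89 in WT (adjusted p = 0.000119). Cdc20, the activator of the anaphase-promoting complex and target of the checkpoint, rose by 0.44 in Null (adjusted p = 0.000472) and 0.36 in WT (adjusted p = 0.00424). Spdl1, a dynein adaptor at kinetochores, rose by 0.42 in Null (adjusted p = 0.000226) and by 0.28 in WT (adjusted p = 0.0118). With GV Null replicate 1 as the single GV Null library, the log2 fold changes in Null were 0.54 ± 0.22 for Mad2l1bp, 0.27 ± 0.12 for Cdc20 and 0.27 ± 0.10 for Spdl1 (SE, adjusted p = 0.0778, 0.105 and 0.0606). With library totals alone the calls of Cdc20 and Nuf2 in WT were lost (adjusted p = 0.132 and 0.245). Of the checkpoint partners, only Mad2l1bp then stayed higher in WT, and only Mad2l1bp, Cdc20 and Spdl1 in Null. The calls of Spdl1 in WT and Nuf2 in Null were therefore lost as well.

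Of 15 passenger and Aurora partners, 14 were tested, 7 rose and 2 fell in Null, and 5 rose and 2 fell in WT, with medians of 0.19 and 0.13, against the same shares of 49.0% and 42.7% of all tested genes. With library totals alone 2 were higher and 3 lower in each genotype. With GV Null replicate 1 as the single GV Null library fewer of these partners, and fewer of all tested genes, were called in Null. Cdca8, which encodes borealin, another targeting subunit of the passenger complex, averaged 144 ± 11.1 CPM in MII Null and 150 ± 7.49 CPM in MII WT, against 103 ± 12.5 CPM in GV Null and 114 ± 3.03 CPM in GV WT (SD). Cdca8 rose by log2 0.49 in Null (adjusted p = 9.41e-05) and 0.40 in WT (adjusted p = 0.00129), so survivin and borealin mRNA moved in opposite directions. Sgo1, a shugoshin that protects centromeric cohesion, rose by 0.55 in Null (adjusted p = 3.69e-06) and 0.50 in WT (adjusted p = 2.33e-05). Haspin, the kinase whose histone mark docks survivin, rose by 0.29 in Null (adjusted p = 0.00254) and 0.26 in WT (adjusted p = 0.00907), and Ppp2r5c, a regulatory subunit of the PP2A phosphatase, by 0.35 in Null (adjusted p = 0.000791) and 0.26 in WT (adjusted p = 0.0122). Kif2c, a microtubule depolymerase that Aurora B regulates, fell by 0.26 in both Null (adjusted p = 0.00983) and WT (adjusted p = 0.0151), and Cdc37, a chaperone of kinases, fell by 0.66 in Null (adjusted p = 0.000234) and fell by 0.68 in WT (adjusted p = 0.000403). The call of Kif2c was lost without GV Null replicate 1 in Null (adjusted p = 0.0568) and without GV WT replicate 2 or MII WT replicate 3 in WT (adjusted p = 0.0637 and 0.0911). Nuf2 lost its call in WT without MII WT replicate 3 (adjusted p = 0.0597). Ppp2r5c lost its call in Null with library totals alone (adjusted p = 0.134) and was at 0.24 ± 0.10 (SE) with GV Null replicate 1 alone. Haspin lost its call in WT with library totals alone (adjusted p = 0.509). On that scale only Sgo1 and Cdca8 of these partners stayed higher in either genotype. The calls of Haspin in Null and Ppp2r5c in WT were therefore lost as well.

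The comparison of Null with WT asks whether loss of Sirena1 goes with a change in these mRNAs at either stage. In GV oocytes none of the 10 members passed the edgeR test, while 0.0546% of all tested genes did. The smallest adjusted p was 0.749, for Ttk, 0 members had an unadjusted p under 0.05, and DESeq2 called 0. The largest difference was that of Incenp, at 118.8 ± 7.14 CPM in GV Null and 135.7 ± 5.51 CPM in GV WT (SD, n = 3 each), a log2 fold change of -0.19 with a 95% interval between -0.40 and 0.02. Aurkb was the 1 member with a fold change above 0 (0.09, interval between -0.16 and 0.34), at 21.4 ± 2.23 CPM in GV Null and 20.1 ± 1.22 CPM in GV WT.

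In these oocytes 9 of 10 members were below 0, with a median of -0.08, where 46.34% of all tested genes were below 0 and their median was 0.02. For Ttk and Incenp all 3 GV Null libraries were below all 3 GV WT libraries, and over all tested genes 12.8% had groups that did not overlap, 5.93% with the Null libraries lower. GV Null replicate 2, the library with the highest cumulus marker sum, had the lowest level of its group in 9 of the 10 members, and GV Null replicate 1 the highest in 8. Without replicate 2 the median was -0.02 and 8 of 10 members were below 0. Without replicate 1 the median was -0.16 with 9 of 10 below 0, and without replicate 3 it was -0.09 with 10 of 10 below 0. With replicate 1 as the single GV Null library the median was 0.02 with 4 of 10 below 0. The part of the cumulus RNA in these values was not tested. Over the 10 genes, the 95% intervals lay between 75.7% (Incenp) and 126.4% (Aurkb) of the GV WT level.

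**Figure D3:**
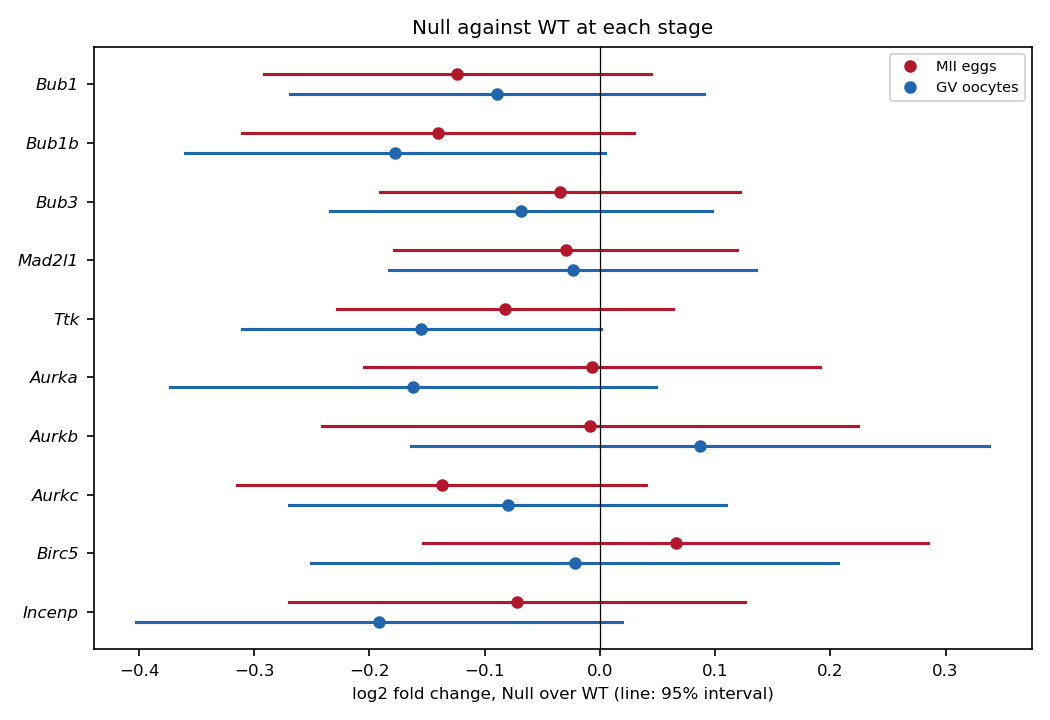
Log2 fold change of Null over WT in MII eggs and in GV oocytes for each gene, with the 95% interval of the fit. All points lie between -0.19 and 0.09, and every interval includes 0.

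In MII eggs none of the members passed either, beside 0.0546% of all tested genes. The smallest adjusted p was 0.843, for Bub1b, 0 members had an unadjusted p under 0.05, and DESeq2 called 0. Bub1b averaged 1288 ± 75.6 CPM in MII Null (n = 4) and 1420 ± 129 CPM in MII WT (SD, n = 3), a log2 fold change of -0.14 with a 95% interval between -0.31 and 0.03. Birc5 averaged 75.0 ± 13.7 CPM in MII Null and 71.8 ± 3.00 CPM in MII WT, a log2 fold change of 0.07 with an interval between -0.15 and 0.28. For every member the MII Null and MII WT libraries overlapped, where 6.07% of all tested genes had groups that did not. The members had a median of -0.05 with 9 of 10 below 0, against 46.78% of all tested genes and a median of 0.01. Without MII Null replicate 4, which had the lowest level of its group in 5 members, the median was -0.02 and 6 of 10 were below 0. Without MII WT replicate 3 the median was also -0.02 with 6 of 10 below 0. Without MII Null replicate 1 it was -0.06 with 10 of 10 below 0. Leaving out any other egg library gave medians between -0.07 and -0.04, with 7 or 8 of 10 below 0. The 95% intervals lay between 80.4% (Aurkc) and 121.8% (Birc5) of the MII WT level.

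The genotype effect in eggs minus that in oocytes did not pass for any member, while 0.00496% of all tested genes passed. It lay between -0.10 ± 0.16 for Aurkb and 0.15 ± 0.14 for Aurka on the log2 scale (SE), the smallest adjusted p was 0.999, and 0 members had an unadjusted p under 0.05. DESeq2 called 0 members. For Birc5 the difference was 0.09, with a 95% interval between -0.23 and 0.40, which compares with maturation changes beyond -2 in both genotypes. None of the 18 checkpoint partners and none of the 14 tested passenger partners passed in either genotype comparison or in their difference, with 0 and 0 at an unadjusted p under 0.05 in GV oocytes and 1 and 0 in MII eggs.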

How the data were processed

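The authors deposited 1 table of raw read counts, a row per gene of Ensembl release 93, per the file headers. The submitters' processing notes list STAR 2.5.3a, bedtools 2.26.0 and GRCm38.p6. Which counter was used, whether it read strand and how multiply mapped reads were treated is not given in the sources used here. Libraries were made from polyA RNA with an amplification kit and read as 65 bp single ends, per the labels' protocols. The 0.2 pg of Renilla RNA added per pool was not used here.

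Symbols were paired with 54079 of 54232 IDs. Genes were kept with filterByExpr, and all 13 libraries in 4 groups were fitted in edgeR 4.0.16 (R 4.3.3) with TMM factors, glmQLFit (robust) and glmQLFTest, two-sided, with Benjamini-Hochberg adjustment over the 20143 genes of each of 5 comparisons and a threshold of 0.05. SE is the log2 fold change divided by the square root of F. The scripts were tested on simulated data. DESeq2 1.42.0, other scalings, no filter, fits of 2 groups, a replicate block and left-out libraries were alternatives. Partners were named as up to 3 called genes per direction with the smallest p in each list and genotype. The members, lists and tests were chosen with earlier results of these data known.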

Additional observations from a re-analysis of the deposited data

How the results depend on the processing

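In both genotypes Birc5, Aurkb and Ttk kept their direction and call between eggs and oocytes under all alternatives run. Incenp in WT passed as lower with RLE scaling (-0.26, adjusted p = 0.0448) and without a filter (adjusted p = 0.0493). Fitting only the 2 groups compared gave 8 members past the threshold in WT (4 higher, 4 lower) in place of 5, by construction without the spread of the other groups. The share of all genes that passed in that fit is not given here, so the count is not a result about these members. Leaving out 1 library gave 4 to 5 members in either genotype, beside 8234 to 10217 of all genes in Null and 7274 to 7529 in WT. No member passed in any genotype comparison or in their difference (lowest adjusted p over alternatives 0.113 in GV, 0.698 in MII and 0.591 for the difference). For all genes, the counts past the threshold in GV were 11, 644 without a filter, 27 with DESeq2 and 6 to 139 with 1 library left out (139 when GV Null replicate 1 was dropped, 6 when GV Null replicate 3 or GV WT replicate 1 or 2 was). In MII they were 11, 290 without a filter, 41 with DESeq2 and 4 to 12 (7 without MII Null replicate 1, 6 without MII WT replicate 3, and 4 without MII WT replicate 1 or 2). Without GV Null replicates 2 and 3, which leaves 1 library in that group with the spread of the other groups, 5672 genes passed between stages in Null, in place of 9867.

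The labels do not say whether pools with the same replicate number share an animal or a day. Correlations of same-numbered pools lay between -0.10 and 0.23. They were not set beside those of differently numbered pools, so they cannot settle whether the pools were paired. With a replicate block, 5 members passed between stages in Null and 7 in WT, where Aurka (-0.20, adjusted p = 0.0484) and Incenp (adjusted p = 0.0371) were added. The share of all genes that passed between stages with the block is not given here. The block gave 0 in each genotype comparison.

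Signs turned only in uncalled log2 fold changes, and the cause was not tested. For Null over WT in MII eggs, Aurka became 0.011 (RLE), 0.00060 (no filter), 0.074 (block) and 0.011 (DESeq2), and Aurkb 0.0090 (RLE), 0.064 (block) and 0.0091 (DESeq2). The difference between stages for Mad2l1 became 0.027 (RLE), 0.016 (no filter) and 0.027 (DESeq2). For eggs over oocytes, Bub1b became -0.14 in Null and -0.15 in WT with library totals, and Aurka in Null 0.035 with the block. Without GV Null replicates 2 and 3, Null over WT in GV oocytes became 0.055 for Bub3, 0.016 for Mad2l1, 0.020 for Aurka, 0.081 for Aurkc and 0.050 for Birc5, eggs over oocytes in Null became -0.070 for Bub1b, and the difference became -0.12 for Bub1b, -0.089 for Bub3, -0.0066 for Ttk and -0.025 for Aurka.

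With 1 library left out, eggs over oocytes ranged between -0.15 and 0.056 for Aurka in Null and between -0.024 and 0.099 for Bub1b in WT. Null over WT in MII eggs ranged between -0.063 and 0.094 for Aurka, -0.088 and 0.083 for Aurkb, -0.059 and 0.15 for Birc5, -0.054 and 0.018 for Bub3, -0.13 and 0.0091 for Incenp, and -0.054 and 0.036 for Mad2l1. In GV oocytes it ranged between -0.0025 and 0.14 for Aurkb and -0.069 and 0.026 for Birc5. The difference ranged between -0.16 and 0.0066 for Aurkb, -0.12 and 0.038 for Aurkc, -0.028 and 0.18 for Birc5, -0.10 and 0.026 for Bub1, -0.017 and 0.13 for Bub1b, -0.019 and 0.11 for Bub3, and -0.026 and 0.070 for Mad2l1.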

Other observations

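Genes whose relative levels over the 13 libraries were most like those of a member were named by the root mean square difference of log2 levels, each centred on its own mean, among 10306 genes. For Birc5 they were Gm813 (0.0961) and Eef1d (0.104), where the median over all genes was 1.16. Eef1d, a translation elongation factor subunit, averaged 28.6 ± 1.92 CPM in MII Null and 28.6 ± 0.882 CPM in MII WT, against 115.9 ± 4.18 CPM in GV Null and 127.2 ± 8.02 CPM in GV WT (SD). For Ttk they were Cdk12 (0.0428), the gene of a kinase of transcription elongation, and Spg20 (0.0461). Cdk12 averaged 512 ± 37.3 CPM in MII Null and 558 ± 20.3 CPM in MII WT, against 367 ± 25.1 CPM in GV Null and 399.6 ± 14.96 CPM in GV WT. For Aurkb they were Arhgap20os (0.0758) and Ybx3 (0.0825), an RNA-binding protein gene, and for Mad2l1 Ube2w (0.0538) and Ptbp2 (0.0556). For Bub1b they were Anxa6 (0.0558) and Gm8752 (0.0620), for Bub3 Osbpl9 (0.0432) and Laptm4b (0.0550), and for Aurkc Gm10259 (0.0605) and Kpna2 (0.0619). For Bub1 they were Cfap298 (0.0703) and Vps53 (0.0740), for Aurka Gas8 (0.0670) and Eef2k (0.0708), and for Incenp Ik (0.0780) and Gm35853 (0.0863). Such likeness was measured within these libraries alone.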
